A study of Mus musculus with 6 samples.

Results

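The genes described here have a probe that detected them in wild-type mouse embryonic stem cells and not in lines without Dppa2, with or without a Flag-Dppa2 vector. Other probes of some of them were detected in the knockout lines, as given further on. They were chosen by signal. A probe with a RefSeq mRNA accession had to be well above background, the scanner's detection flag, on both wild-type arrays with a processed signal of at least 30 intensity units, and not well above background on any of the 4 knockout arrays. Of 18068 genes measured by such probes, 92 met the rule, through 96 probes, after 8 named genes were left out: Eif2s3y, Ddx3y, Zfy2, Uty, Usp17la, Gm428, Tcstv1 and Parva. The difference from wild type is therefore how the genes were chosen and is given as a description. The rule did not use what the other probes of each gene read or what the promoters have in common. It held both knockout groups below the flag, which capped their signals and left out any probe detected with Flag-Dppa2. How dark each gene was, and how mock and Flag-Dppa2 arrays differed, are described within that limit.

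The wild-type cells (15-1+/+, 15-2+/+) were not transduced. Both knockout groups were 15-2-/- and also 15-1CT/CT, where 15-2 is Dppa2, 15-1 is its neighbour and paralogue Dppa4, and CT is a conditional targeted allele. Their piggyBac vector, driven by CAG, was empty in the mock group and expressed Flag-tagged Dppa2 in the Flag-Dppa2 group. Each group had 2 arrays, all lines came from blastocysts of mixed 129Sv and C57/BL6 background, and the cells were grown in serum and LIF on gelatin before total RNA was labelled with Cy3. Each knockout line was split between the vectors, so the 2 mock arrays and the 2 Flag-Dppa2 arrays come from the same 2 lines, numbered alike. Any comparison with wild type also contains the vector and the Dppa4 allele.

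Dppa2 and Dppa4 form a heterodimer of SAP-domain proteins found in early embryos, pluripotent cells and germ cells. The pair binds CpG-rich promoters that carry both an active and a repressive histone mark and keeps them free of DNA methylation, and it is known to act upstream of the transcripts of the two-cell-like state through Dux. Neither binding nor methylation was measured here.

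The Dppa2 probe read 3580 and 3600 in wild type, 189 and 186 in mock and 760 and 918 in Flag-Dppa2 lines. It was lower in mock than in wild type by a log2 difference of -4.15 (SE 0.16, limma adjusted p = 0.00622) and higher in Flag-Dppa2 than in mock by 2.20 (SE 0.16, limma adjusted p = 0.031, or 0.0727 with the replicate number as a block). The Flag-Dppa2 lines thus stood between mock and wild type. Where the probe lies relative to the deleted part is not given in the sources used here. All 9 pluripotency markers on the array, among them Pou5f1, Sox2 and Klf4, were well above background on all 6 arrays. Between 56.3% and 60.5% of spots were well above background per array, none was saturated, and with 2 arrays a group precision is limited. The 2 wild-type arrays were almost copies of each other: 5 of 14943 bright spots differed over 2-fold, whereas the mock pair had 548 such spots and the Flag-Dppa2 pair 473. They are counted as 1 sample in levels, which are given without an error, although the linear model takes them as 2. With them averaged into 1 sample no probe was called in any comparison (limma adjusted p = 0.141 for Dppa2 in mock and 0.195 between Flag-Dppa2 and mock), so every call below rests on that choice. Y-linked transcripts were dark on all 4 knockout arrays and present in wild type, so genotype cannot be told apart from sex, and the Flag-Dppa2 arrays were scanned from a slide of their own, so slide and Flag-Dppa2 cannot be told apart either.

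By the chosen probe, the largest losses were in a small group of genes. Reg2, a secreted lectin-like protein of the regenerating islet family, was at least 38.3-fold lower in both knockout groups, and Zscan4c, a zinc-finger gene of the two-cell embryo, at least 16.7-fold. The chosen probe was at least 5-fold lower in 10 of the 89 genes with a bound and at least 2-fold lower in 57, with a median bound of 2.42. With either wild-type array alone, an alternative chosen after seeing the data, these counts were 8 and 49. They include Gm5662, Disc1 and Lats1, whose other probes showed no such loss. Most of the 92 were faint to begin with: the median of the wild-type means was 59.5 units, 48 genes lay under 60, and 18 were above 100. The bound sets the wild-type mean against the lowest signal that was well above background on each knockout array (14.6 to 24.5 units) or the probe's own signal if that is higher, and the smaller of the mock and Flag-Dppa2 bounds is given. A faint gene has a small bound by construction, since its wild-type signal lies close to that floor.

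**Figure D1:**
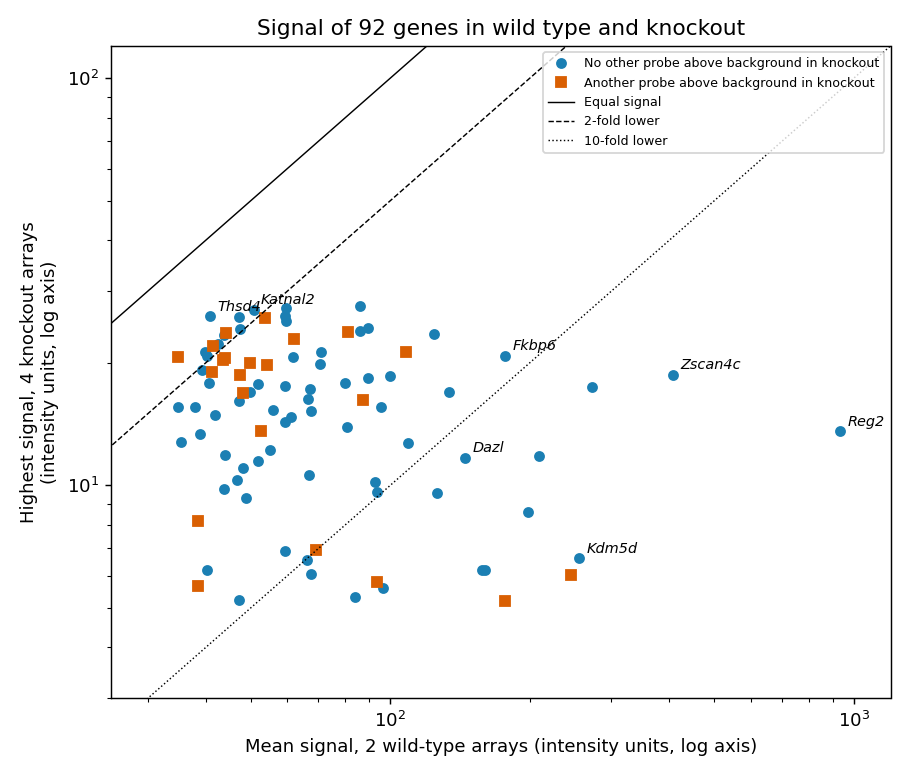
Highest processed signal on the 4 knockout arrays against the mean of the 2 wild-type arrays (intensity units, both axes logarithmic) for the 92 genes, with lines of equal signal, 2-fold and 10-fold lower. Orange squares are the 22 genes that have another probe well above background on a knockout array. Most points lie left of 60 units in wild type, and Reg2 and Zscan4c stand far to the right.

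Of the 3 genes just inside the minimum, Slc25a31 read 30.5 and 39.2 in wild type, Ms4a4d 31.1 and 38.8 and Nufip1 31.4 and 460. Only 2 genes missed it: Pla2g4f read 29.9 and 33.8 in wild type, 5.11 and 7.15 in mock and 4.88 and 8.94 in Flag-Dppa2, and Ccdc69 read 28.5 and 46.1, 5.29 and 7.64, and 10.5 and 12.4. On the knockout arrays these 5 genes lay between 3.27 and 20.7 units.

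Germ cell genes were the largest group with a role in common, with 15 members. Their promoters are shown with those of early embryo genes because those shown, chosen after their values were seen, differ widely in CpG content. Each sequence is the 250 bases before the RefSeq transcription start (GRCm38.p6), 5′ to 3′ on the gene's strand, with CpG in capitals. The genes are Dazl (chr17:50293621-50293870, minus strand, 20 CpG), Sycp1 (chr3:102936101-102936350, minus, 17 CpG), Fkbp6 (chr5:135350045-135350294, minus, 17 CpG), Zscan4c (chr7:11005495-11005744, plus, 3 CpG) and Pramel37 (chr5:94070546-94070795, minus, 1 CpG).
Dazl: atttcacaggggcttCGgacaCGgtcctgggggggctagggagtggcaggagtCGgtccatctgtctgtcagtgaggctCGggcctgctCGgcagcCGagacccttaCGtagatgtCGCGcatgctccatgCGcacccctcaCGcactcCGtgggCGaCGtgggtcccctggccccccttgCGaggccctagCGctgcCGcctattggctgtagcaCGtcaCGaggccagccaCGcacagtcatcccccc
Sycp1: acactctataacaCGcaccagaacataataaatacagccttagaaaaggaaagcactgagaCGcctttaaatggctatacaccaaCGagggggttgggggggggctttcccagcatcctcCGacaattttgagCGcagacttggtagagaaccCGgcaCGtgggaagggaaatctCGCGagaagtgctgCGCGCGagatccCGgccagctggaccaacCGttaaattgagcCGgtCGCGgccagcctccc
Fkbp6: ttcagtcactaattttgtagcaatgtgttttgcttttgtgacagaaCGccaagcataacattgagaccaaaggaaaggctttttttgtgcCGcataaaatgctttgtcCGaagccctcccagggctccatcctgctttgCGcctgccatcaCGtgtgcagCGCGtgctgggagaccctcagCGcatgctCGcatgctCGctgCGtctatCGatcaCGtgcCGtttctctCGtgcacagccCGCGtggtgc
Zscan4c: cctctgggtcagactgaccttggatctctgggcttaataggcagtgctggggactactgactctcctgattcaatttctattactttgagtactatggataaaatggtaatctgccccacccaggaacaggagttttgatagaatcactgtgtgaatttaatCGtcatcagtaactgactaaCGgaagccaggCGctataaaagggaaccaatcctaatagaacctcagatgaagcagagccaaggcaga
Pramel37: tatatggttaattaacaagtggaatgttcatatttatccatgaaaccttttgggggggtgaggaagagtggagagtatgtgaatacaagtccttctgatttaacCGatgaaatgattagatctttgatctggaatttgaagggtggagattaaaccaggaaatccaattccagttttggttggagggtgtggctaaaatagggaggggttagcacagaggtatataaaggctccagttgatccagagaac
Each of the germ cell promoters shown holds at least 17 CpG, and the early embryo promoters hold 3 and 1.

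Dazl, an RNA-binding regulator of translation in germ cells, read 143 and 146 in wild type, 6.45 and 3.15 in mock and 5.26 and 11.7 in Flag-Dppa2 lines. Fkbp6, a co-chaperone of the piRNA pathway needed in male meiosis, read 175 and 178 in wild type, 5.81 and 3.30 in mock and 9.60 and 20.8 in Flag-Dppa2. The second Flag-Dppa2 array was the highest knockout array for both. That both knockout groups lay far below wild type follows from the rule. Their bounds were at least 5.93-fold and at least 7.25-fold.

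Speer4f1, of a rodent family of glutamate-rich proteins of spermatogenesis, read 197 and 199, then 7.03 and 4.13 in mock and 5.73 and 8.60 in Flag-Dppa2 (at least 8.12-fold). Dmrtc1c2, an X-linked gene of the DM-domain family, read 133 and 135, 5.41 and 3.12, and 8.75 and 17.0 (at least 5.51-fold). Both belong to families of near-identical copies, so the probe may read several of them. Sycp1, the transverse filament of the synaptonemal complex, was faint, with 44.0 and 49.3 in wild type, 6.05 and 3.52 in mock and 10.3 and 5.46 in Flag-Dppa2. Slc25a31, the testis ADP/ATP carrier, read 5.68 and 3.27 in mock and 15.6 and 12.9 in Flag-Dppa2, so the Flag-Dppa2 arrays lay above mock but below detection.

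The other 9 germ cell genes were Dmrtc2, a DM-domain protein of pachytene cells, Katnal2, a microtubule-severing protein of spermiogenesis, Usp26, an X-linked ubiquitin protease, Stk33, a kinase, Hus1b, a paralogue of the Hus1 checkpoint clamp, Cox8c, a testis form of a cytochrome c oxidase subunit, Nlrp4a, an oocyte gene, Xlr5a of the X-linked lymphocyte-regulated family and Ly6k, a GPI-anchored sperm protein. Over all 15, wild-type means ran from 34.8 to 198 and the highest knockout signal from 6.06 to 27.0. None of the 15 was without a significant signal on all 4 knockout arrays, and 12 have no other probe.

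**Figure D2:**
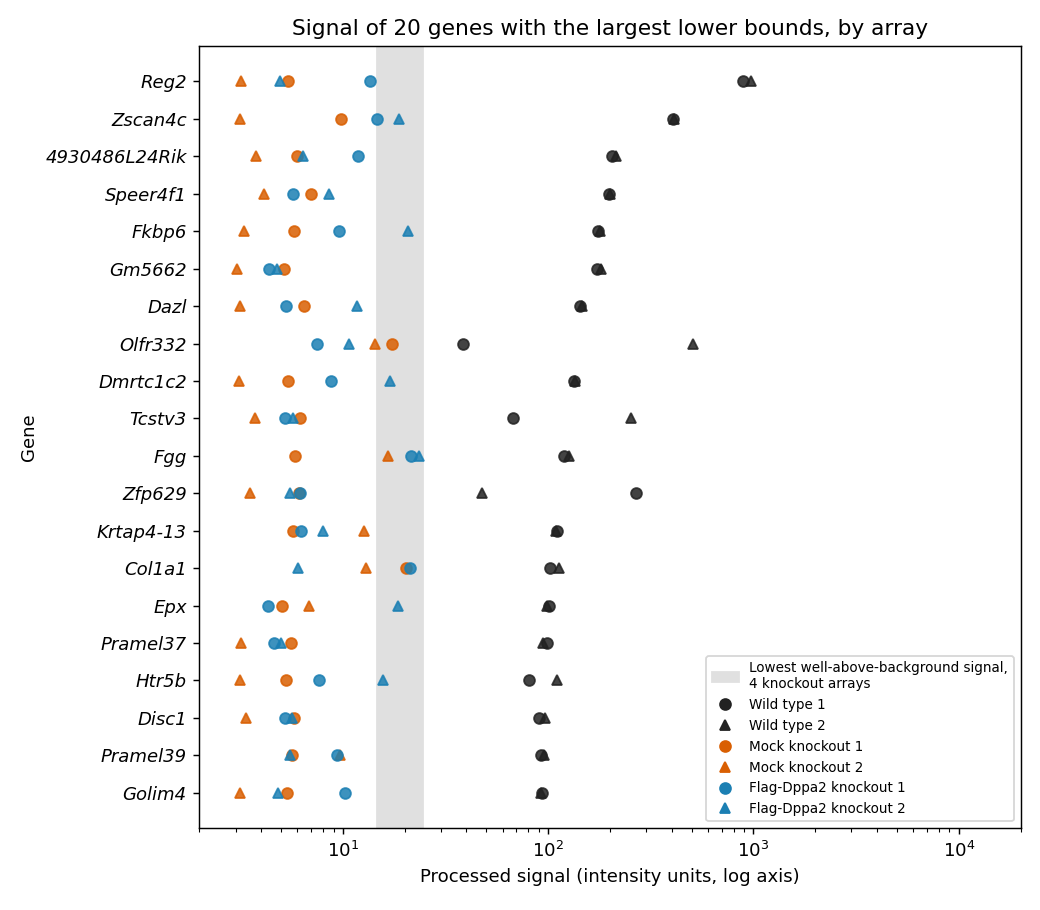
Processed signal (intensity units, logarithmic axis) on each of the 6 arrays for the 20 genes with the largest lower bounds, in order of the bound; circles are replicate 1, triangles replicate 2, and the grey band spans the lowest well-above-background signal of the 4 knockout arrays. Wild-type signals lie to the right of every knockout signal in each gene, and in Olfr332, Tcstv3 and Zfp629 the 2 wild-type arrays are far apart.

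The 5 early embryo genes had a median bound of 3.95. Zscan4c, which marks two-cell-like cells in stem cell cultures, read 406 and 408 in wild type, 9.74 and 3.15 in mock and 14.7 and 18.7 in Flag-Dppa2. Tcstv3, of a family transcribed at the two-cell stage, read 67.3 and 252, 6.21 and 3.71, and 5.22 and 5.71 (at least 5.34-fold, or at least 2.82-fold with the first wild-type array alone). Its wild-type arrays differed by over 2-fold, which 7 of the 92 genes did. Pramel37, of the leucine-rich PRAME-like family, read 98.5 and 94.3, 5.59 and 3.19, and 4.61 and 5.01 (at least 3.95-fold). Pramel39 read 91.9 and 95.6, 5.66 and 9.63, and 9.38 and 5.54 (at least 3.84-fold), and Pramel7, an inner cell mass gene, had a bound of at least 2.28-fold. Tcstv3 and Pramel37 had no significant signal on any knockout array. All of these families have near-identical copies, and the 5 genes have no named probe besides those that met the rule.

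Secreted, metabolic and epithelial genes numbered 13 and held the brightest of all. Reg2 read 892 and 978 in wild type, 5.38 and 3.18 in mock and 13.6 and 4.96 in Flag-Dppa2. Fgg, the gamma chain of fibrinogen, read 120 and 127, 5.82 and 16.5, and 21.5 and 23.5 (at least 4.95-fold), so both Flag-Dppa2 arrays lay close to the detection limit. The others were Adh4, an alcohol and retinol dehydrogenase, Serpina3j, a serpin, Cda, cytidine deaminase, Ppp1r3c, which targets a phosphatase to glycogen, Fhit, a diadenosine triphosphate hydrolase, Steap3, an iron reductase, Clca1, Pkhd1, the fibrocystin gene, Olr1, an oxidised LDL receptor, Cdcp1 and Tmprss11f, a membrane serine protease. The group's median bound was 1.71, and Reg2 and Fgg were its only genes above 3. Olr1 read 55.2 and 197 in wild type and has no bound, because 1 of its spots carried an outlier flag. Steap3 read 42.6 and 98.3 in wild type, and its Flag-Dppa2 signals of 19.9 and 15.6 lay above its mock signals of 6.04 and 6.70. Pkhd1 was dark throughout, with 6.19 and 3.54 in mock and 5.04 and 5.49 in Flag-Dppa2.

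Matrix and mesenchyme genes numbered 6. Col1a1, the main chain of type I collagen, read 102 and 113 with the chosen probe in wild type, 20.3 and 13.0 in mock and 21.3 and 6.05 in Flag-Dppa2 (at least 4.38-fold). Twist2, a mesenchymal bHLH factor, read 87.2 and 80.9, 5.26 and 5.32, and 4.60 and 4.84, with no knockout array above 6 units. Podn, a matrix proteoglycan, had no significant signal on any knockout array. The others were Thbs4, a thrombospondin, Itih5, a hyaluronan-binding protein, and Thsd4, a microfibril protein. Thsd4 read 38.4 and 43.3 in wild type, 9.70 and 7.14 in mock and 24.9 and 26.0 in Flag-Dppa2, and is the 1 member called between the knockout groups. It was not called lower in Flag-Dppa2 than in wild type (log2 difference -0.53, SE 0.16, limma adjusted p = 0.173). Both Flag-Dppa2 signals failed the detection flag but exceeded the lowest signal that passed it on their array (21.0 and 22.9). The other probe of Thsd4 was dark on all 6 arrays. Fibroblast markers did not all move alike. Of the 15 tested, 4 were called lower in mock than in wild type (Loxl1, Mmp2, Fbn1 and Twist2, the last chosen by the rule for being lower), where 3.19% of all probes were. Thbs2, Pdgfra and Twist1 were higher in mock by log2 differences of 1.14, 0.84 and 0.34, not called, and the other tested markers were lower. Signals were also summed over the 19 markers on the array, of which Thy1 was the brightest. The sums were 5770 and 6310 in wild type, 2740 and 2190 in mock and 3300 and 2520 in Flag-Dppa2. Their part in the loss of the matrix genes was not tested, and in bulk RNA fewer cells of a type and less RNA per cell cannot be told apart. Loxl1, Mmp2 and Fbn1 were called higher in Flag-Dppa2 than in mock; Mmp2 read 650 and 666, 38.9 and 25.4, and 490 and 428 (log2 difference 3.91, SE 0.19, limma adjusted p = 0.0187). With the replicate number as a block none of these 3 passed (limma adjusted p = 0.0632, 0.092 and 0.0727 for Mmp2, Loxl1 and Fbn1).

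Immune genes numbered 12, and 6 of them have no other probe. Epx, eosinophil peroxidase, read 101 and 98.6 in wild type, 5.07 and 6.86 in mock and 4.30 and 18.6 in Flag-Dppa2 (at least 4.10-fold). Ifih1, a sensor of double-stranded RNA, read 44.5 and 37.0, 5.22 and 3.50, and 17.8 and 8.67. Herc6, the ligase that attaches ISG15, had no significant signal on any knockout array with the chosen probe, which read 73.0 and 65.2 in wild type. Others were Il15ra, the receptor chain that presents IL-15, Batf, an AP-1 factor of lymphocytes, Cd83, Ptpn22, a phosphatase of antigen receptor signalling, Gbp7, a guanylate-binding protein, Trim12c, Ms4a4d and Saa1, serum amyloid A. Il15ra read 26.0 on the first Flag-Dppa2 array and 6.26 and 6.11 in mock, and Batf 27.6 on the second Flag-Dppa2 array and 6.89 and 4.01 in mock. Each of these was highest on a single array and did not pass the detection flag there. Both signals nevertheless exceeded the lowest signal that passed the flag on that array (21.0 and 22.9). Of 21 interferon and antigen presentation genes tested, 5 were called lower in mock than in wild type (3.19% of all probes were). Among the 5 were Ifih1, chosen by the rule for being lower, and Psmb8 (1430 and 1330, 19.6 and 6.57, and 288 and 46.1).

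Neural and receptor genes numbered 9. Olfr332, an olfactory receptor, read 38.3 and 508 in wild type, 17.4 and 14.3 in mock and 7.49 and 10.7 in Flag-Dppa2, so its bound of at least 5.72-fold rests on the second wild-type array and is 1.61 with the first alone. Htr5b, a serotonin receptor, read 80.4 and 111, 5.31 and 3.14, and 7.65 and 15.6 (at least 3.87-fold). Disc1, a scaffold protein of neurons, read 90.6 and 96.6, 5.79 and 3.36, and 5.23 and 5.68 (at least 3.84-fold). Disc1 was among the darkest in knockout with this probe, while its other probes read otherwise, as given further on. The remaining genes were Adarb2, an RNA-editing family member, Pde1a, a cyclic nucleotide phosphodiesterase, Gpm6a, a neuronal membrane glycoprotein, Ric3, a chaperone of nicotinic receptors, Vmn1r53, a vomeronasal receptor, and Kctd12b. Vmn1r53 had no significant signal on any knockout array.

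Nuclear proteins numbered 7: Sox6, Zfp608, Zfp629, Zscan5b, Zc3h6, Nufip1 and Kdm5d. Zfp629 read 268 and 47.6 in wild type, 6.10 and 3.54 in mock and 6.20 and 5.50 in Flag-Dppa2 (at least 4.63-fold, or at least 1.91-fold with the second wild-type array alone). Kdm5d, an H3K4 demethylase, is the 1 Y-linked member and read 415 and 96.9, 6.63 and 5.12, and 5.72 and 6.01. It was dark on the same arrays as the Y-linked genes that the rule leaves out. X-linked members numbered 6, which is 6.52%, against 3.59% of all genes measured, and were Xlr5a, Usp26, Rtl3, Dmrtc1c2, Kctd12b and Cldn34c1.

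The cytoskeleton group held 9 genes. Krtap4-13, a hair keratin-associated protein, read 110 and 109, 5.72 and 12.7, and 6.24 and 7.96 (at least 4.49-fold). The others were Krt23 and Krt222, keratins, Bfsp1, a lens filament protein, Xirp2, an actin-binding protein of muscle, Myh4, a fast muscle myosin, Clip4 and Dcdc2a, microtubule-associated proteins, and Rflnb. Xirp2 had no significant signal on any knockout array.

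Other genes, or genes with no known role given here, numbered 16. 4930486L24Rik read 204 and 214, 5.97 and 3.77, and 11.8 and 6.39 (at least 8.56-fold). Gm5662 read 173 and 180, 5.19 and 3.05, and 4.35 and 4.77 with the chosen probe (at least 7.24-fold). Golim4, a Golgi membrane protein, read 93.4 and 92.3, 5.36 and 3.14, and 10.2 and 4.84 (at least 3.81-fold). The rest were Lats1, a Hippo pathway kinase, Cast, the calpain inhibitor calpastatin, Uggt2, a glycoprotein folding enzyme, Mindy4, a deubiquitinase, Fam178b, Rtl3, derived from a retrotransposon, Spats2l, Lrrc75a, Creg2, Cldn34c1, 1700012P22Rik, 1700125H20Rik and 5031410I06Rik.

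By the chosen probe, few of the genes were fully silent. The scanner's second flag asks whether a spot's signal is positive and significantly above its background, which is easier to pass than the detection flag. By that flag the chosen probe of 8 genes had no signal on any knockout array (Gm5662, Tcstv3, Pramel37, Herc6, Vmn1r53, Xirp2, Podn and Pkhd1). In 14 genes it had signal on 1 array, in 23 on 2, in 22 on 3 and in 25 on all 4. Measured against the 143 to 147 negative control spots of each array, 10 genes stayed at or under their 95th percentile on all 4 knockout arrays. Of these, 7 were also among the 8 without significant signal, and the other 3 were Disc1, Xlr5a and Saa1. Not all of these genes were silent by their other probes. Gm5662, Disc1 and Saa1 each had another probe well above background on all 4 knockout arrays, and Herc6 on 1 mock array, as given further on.

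Residual signal was found more often on the Flag-Dppa2 arrays, which share a slide of their own, than on the mock arrays. Of the 92 genes, 44.6% and 57.6% had a significant signal on the mock arrays and 79.3% and 64.1% on the Flag-Dppa2 arrays. Among all mRNA spots that were not well above background on the same array, the shares were 40.8%, 46.2%, 42.2% and 42.7%. The median signal of the genes was 6.54 and 4.24 in mock and 11.7 and 8.57 in Flag-Dppa2. In line 1, 65.2% of the 89 genes in the model were higher with Flag-Dppa2, against 22.7% of 6651 mRNA probes that were dark on all 4 knockout arrays. In line 2 the share was 76.4%, no higher than the 80.2% of the dark probes. By this share the genes exceeded the dark probes in line 1 only. Over both lines 44 genes were higher with Flag-Dppa2, 7 were lower and 38 differed in direction. These counts were not made for the dark probes.

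**Figure D3:**
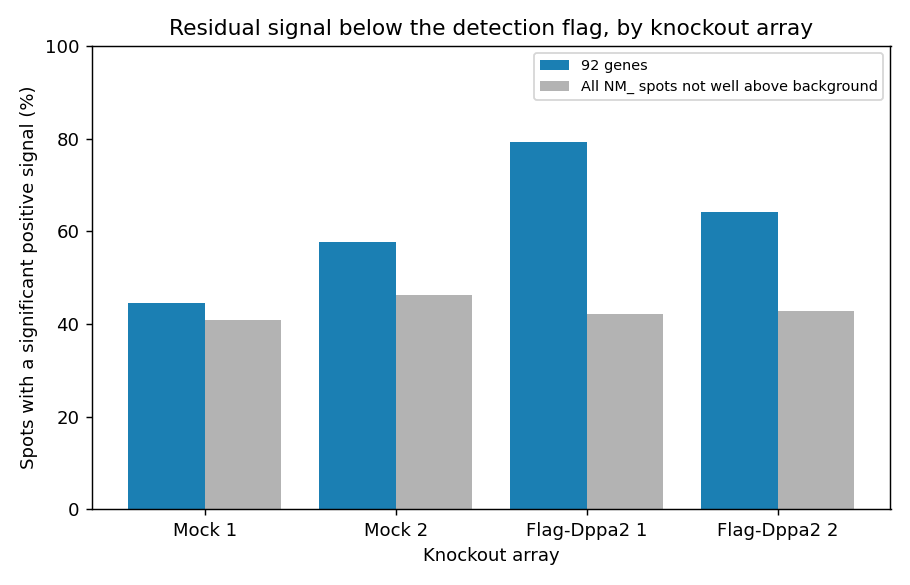
Share of spots with a significant positive signal (percent) on each knockout array, for the 92 genes (blue) and for all mRNA spots not well above background on that array (grey). The blue bars reach 79.3% and 64.1% on the Flag-Dppa2 arrays and 44.6% and 57.6% on the mock arrays, and the grey bars lie between 40.8% and 46.2%.

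In the linear model over all 24829 probes, 1 of the 89 genes, Thsd4, was called higher in Flag-Dppa2 than in mock (limma adjusted p = 0.0485, higher in both lines), where 0.524% of all probes were called higher and 0.0242% lower. At an unadjusted p under 0.05 there were 28 of the 89, against 3184 of all 24829 probes. The median log2 difference was 0.62 over the genes and -0.01 over all probes, which include bright ones. The mRNA probes dark on all 4 knockout arrays are the closer comparison. Their medians were -0.22 in line 1 and 0.66 in line 2, against 0.50 and 0.70 over the genes. The rule held both groups below the detection flag for these probes and left out any probe detected with Flag-Dppa2. No fold between these groups is therefore given for a single gene by its chosen probe. The call was lost without any 1 of the 6 arrays and with the replicate number as a block (limma adjusted p = 0.117). For description only, since the rule used these contrasts, 58 of the 89 were called lower in mock than in wild type, where 3.19% of all probes were, and 17 lower in Flag-Dppa2, where 0.407% were. With the wild-type arrays averaged, limma called 0 in both, with 77 and 67 at an unadjusted p under 0.05. Without either wild-type array both counts were 0 as well, and without either Flag-Dppa2 array the second was 0.

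The most direct check on the label came from the other probes of the same genes. A further 54 probes measured 38 of the 92 genes, and 54 genes had no probe besides those that met the rule. In 22 of the 38, another probe was well above background on at least 1 knockout array, and in 11 on all 4. In the remaining 16 all other probes were dark in knockout, but in 13 of these they were dark in wild type too.

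**Figure D4:**
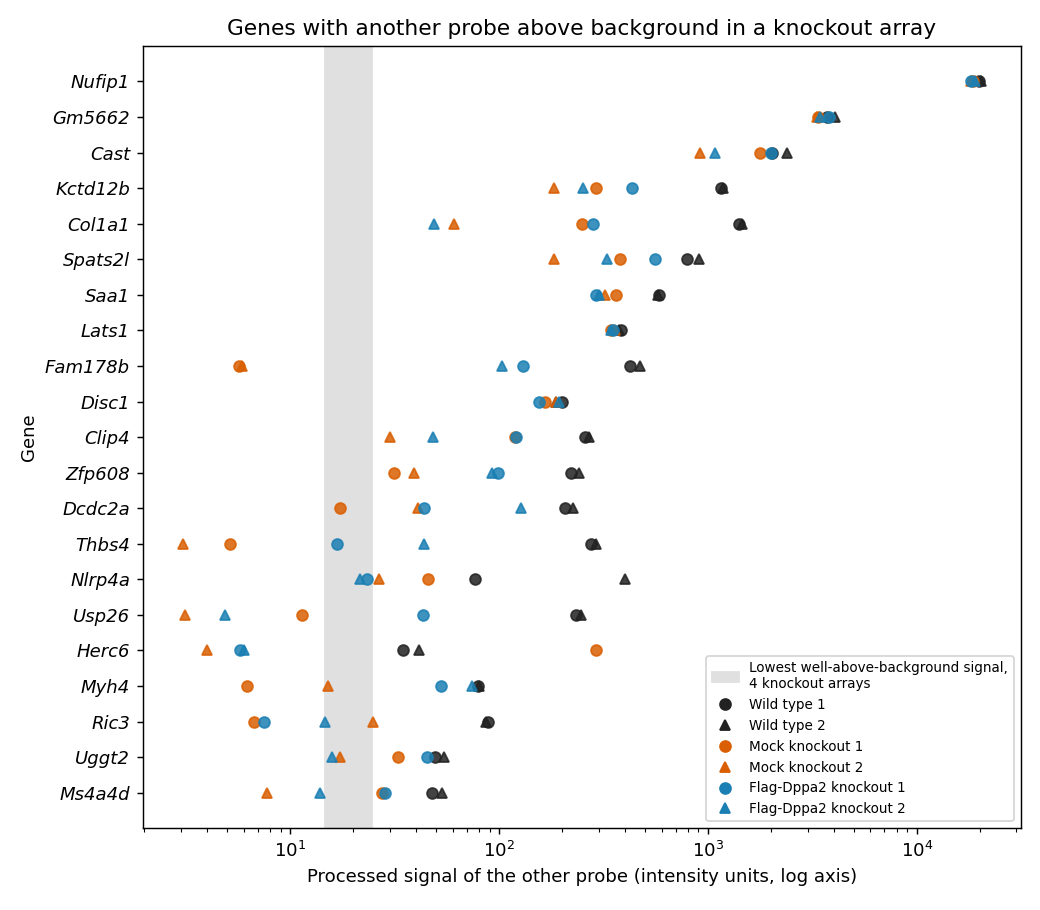
Processed signal (intensity units, logarithmic axis) on each array for the brightest other probe of 21 genes that have one well above background on a knockout array; symbols and grey band are as in the plot of the 20 genes with the largest bounds. Nufip1, Gm5662, Lats1 and Disc1 lie together on all 6 arrays, and in Fam178b the Flag-Dppa2 arrays lie between mock and wild type.

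Some genes were as high in knockout as in wild type by another probe. Nufip1, an RNA-binding partner of FMRP, read 19800 and 20200 in wild type, 18500 and 18200 in mock and 18100 and 19000 in Flag-Dppa2, while the chosen probe read 5.69 and 4.69 in mock and 4.73 and 6.04 in Flag-Dppa2. Gm5662 read 3730 and 4050, 3350 and 3320, and 3780 and 3420 with its other probe, and Lats1 read 385 and 373, 344 and 357, and 349 and 345. Disc1 read 199 and 188, 165 and 187, and 156 and 193. Scaled to the arrays, wild type over mock was 1.01 for Nufip1, 1.08 for Gm5662, 0.999 for Lats1 and 1.02 for Disc1. For these 4 genes the loss seen by the chosen probe is not seen by the other.

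Other genes were lower by another probe but still present in knockout. Col1a1 read 1410 and 1450 in wild type, 250 and 60.9 in mock and 282 and 49.0 in Flag-Dppa2 with a probe printed in 10 spots. Kctd12b read 1160 and 1180, 291 and 184, and 434 and 253, where wild type was 4.68 times mock and 3.17 times Flag-Dppa2. Zfp608 read 222 and 242, 31.4 and 39.1, and 98.7 and 92.1, where wild type was 6.12 times mock and 2.18 times Flag-Dppa2. Col1a1 differed most between the 2 knockout lines, with line 2 lower in both groups.

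Spats2l read 792 and 906, 380 and 184, and 556 and 327, Cast 2020 and 2380, 1770 and 916, and 2010 and 1080, and Clip4 257 and 270, 119 and 29.9, and 121 and 48.2. Saa1 read 585 and 575, 364 and 321, and 290 and 301. In these 4 genes every knockout signal was well above background, and line 2 was the lower line in Spats2l, Cast and Clip4. Dcdc2a read 207 and 226, 17.3 and 40.7, and 43.8 and 127, Nlrp4a 76.9 and 399, 45.4 and 26.7, and 23.3 and 21.6, and Uggt2 49.2 and 54.6, 32.8 and 17.3, and 45.3 and 15.8. Each of these was well above background on 3 knockout arrays.

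In 5 genes another probe was well above background with Flag-Dppa2 and not in mock. Fam178b read 423 and 473 in wild type, 5.65 and 5.87 in mock and 130 and 103 in Flag-Dppa2, at least 6.28-fold higher with Flag-Dppa2 than in mock (limma adjusted p = 0.00631, or 0.0597 with the replicate number as a block). Myh4 read 78.9 and 80.3, 6.23 and 15.2, and 52.4 and 74.5. Thbs4 read 274 and 290, 5.15 and 3.05, and 16.7 and 43.6. By these probes Fam178b and Myh4 were detected on both Flag-Dppa2 arrays, and Thbs4 on 1. Usp26 read 234 and 247, 11.4 and 3.14, and 43.0 and 4.89, and Ms4a4d 47.9 and 53.4, 27.5 and 7.74, and 28.4 and 13.8, each detected on the first Flag-Dppa2 array only. Of the 24 other probes in the model, Fam178b's was the 1 called between the knockout groups.

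In Ric3 and Herc6, another probe was detected on a mock array only. Ric3 read 88.8 and 86.2 in wild type, 6.72 and 24.9 in mock and 7.49 and 14.7 in Flag-Dppa2. Herc6 read 34.6 and 41.4, 291 and 3.99, and 5.76 and 6.02. In Herc6 a single mock array was bright and the wild-type arrays were not well above background. The chosen probes read 46.4 and 58.8 in wild type for Ric3 and 73.0 and 65.2 for Herc6.

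The chosen probes of the other genes in this check were faint. In wild type Lats1 read 94.0 and 81.0, Spats2l 81.3 and 80.7, Fam178b 57.1 and 66.7, Dcdc2a 54.6 and 53.5, Nlrp4a 46.6 and 52.8, Thbs4 42.0 and 54.2 and Zfp608 34.0 and 60.8. Kctd12b read 45.2 and 43.1, Myh4 32.9 and 54.1, Clip4 40.3 and 42.1, Uggt2 37.2 and 51.4, Cast 39.9 and 42.8, Usp26 37.6 and 39.4 and Saa1 40.4 and 36.5. All lay under 100 units, and the highest of their knockout signals was 23.8, for Spats2l.

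Dazl, Il15ra and Pde1a were the 3 genes with another probe that was dark in knockout and well above background on 1 wild-type array. The probe of Dazl read 34.8 and 29.9 in wild type, 5.37 and 3.08 in mock and 4.46 and 4.86 in Flag-Dppa2. Of the 4 genes with a pair of probes that met the rule, 3 were among the 5 largest bounds: Zscan4c, 4930486L24Rik and Fkbp6. The fourth was Golim4.

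For comparison, 133 genes had a probe that was dark in mock and well above background in wild type and on both Flag-Dppa2 arrays, 2 of them members by another probe. Their median wild-type mean was 82.4 units and their median bound in mock 3.84, against 59.5 and 2.89 here. The difference in wild-type signal was not tested. A further 103 genes were detected on 1 Flag-Dppa2 array, 4 of them members by another probe. Of 37 genes on the germ cell list that were tested, 20 were called lower in mock than in wild type, where 3.19% of all probes were, and 4 of the 20 are members chosen for being lower. Between the knockout groups 6 were called higher in Flag-Dppa2, where 0.524% of all probes were, and with the replicate number as a block 1 of the 6 passed. Psma8, a testis proteasome subunit, read 3210 and 3410, 11.2 and 12.3, and 2390 and 1800 (log2 difference 7.51 between Flag-Dppa2 and mock, SE 0.15, limma adjusted p = 0.00486), and Ddx4, a germ granule helicase, read 2290 and 2410, 31.4 and 7.23, and 134 and 43.5 (limma adjusted p = 0.366). Dazl, Sycp1, Fkbp6 and Slc25a31 were the 4 members on that list.

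The DNA methylation, imprinted, lysosomal, and actin and junction lists held genes called in both directions. In mock against wild type, 1 of 23 DNA methylation genes was lower, Dnmt3b (22400 and 23700, 14200 and 11700), and 2 were higher. Of 30 imprinted genes 2 were lower and 4 higher, of 40 lysosomal genes 3 lower and 1 higher, and of 36 actin and junction genes 2 lower and 1 higher. The median log2 difference was 0.84 over 7 endoderm and -0.97 over 7 trophectoderm markers, and none of these markers was called. These lists contain no member, and in the fit over all probes 3.19% were called lower and 2.09% higher.

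Promoter windows of 300 bases (250 before and 50 after the start, RefSeq GRCm38.p6) were found for 74 of the 92. Their median CpG content, observed over expected, was 0.39, against 0.45 for the genes detected again, 0.76 for all genes expressed in wild type by the same measure and 0.65 for all genes measured. Of the 74, 32.4% reached 0.6, against 29.1%, 71.7% and 54.8%. The members were more often almost free of CpG: 27.0% held at most 3, against 6.8% of the genes detected again, 5.74% of the genes expressed in wild type and 2755 of 14449 among all. The medians were 0.59 for the germ cell genes, 0.69 for the matrix genes and 0.08 for the early embryo genes. Of the 11 germ cell windows, 5 reached 0.6, so the set mixes promoters of both kinds.

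**Figure D5:**
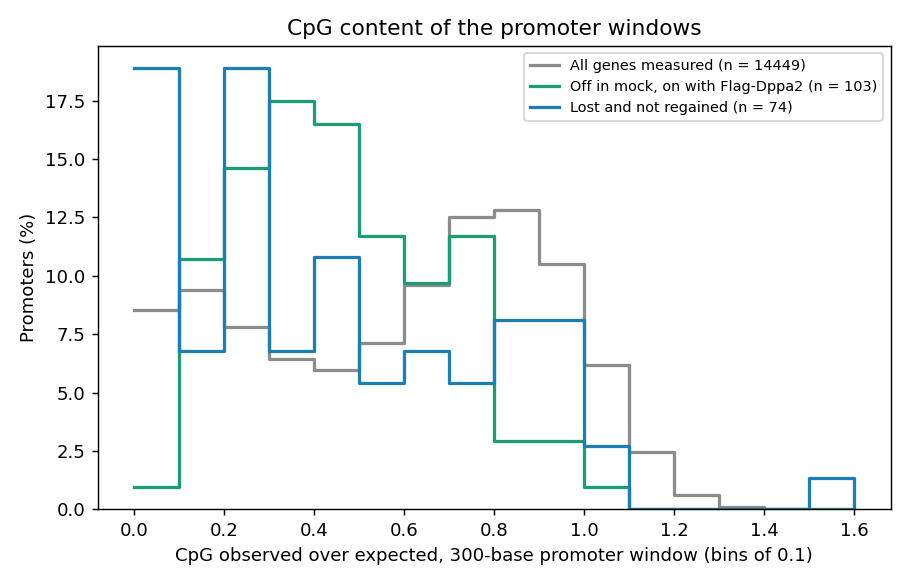
Share of promoter windows (percent) by CpG observed over expected in bins of 0.1, for the genes lost and not regained (n = 74), the genes dark in mock and detected with Flag-Dppa2 (n = 103) and all genes measured (n = 14449). In the lowest bin the lost genes reach 18.9%, and all genes peak near 0.8.

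Motif searches on both strands found CACGTG, an E-box, in 10.8% of the windows, against 9.71% for the genes detected again, 10.4% for genes expressed in wild type and 8.72% for all. TCCCGC was in 18.9%, against 18.4%, 36.1% and 28.7% in the same order, and TATAAA in 12.2%, against 17.5%, 7.56% and 12.0%. TATAAA was present in 3 of the 4 early embryo promoters. No sequences were compared beyond these letters, and a match is not a binding site.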

How the data were processed

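The 6 arrays were 1-colour Agilent whole mouse genome arrays, hybridised with total RNA. Per the file headers, the processed signal is an intensity on a linear scale that Agilent Feature Extraction 10.7.3.1 corrected for background and spatial trend, not scaled across arrays. The authors also deposited a series matrix of log2 values, quantile-normalized, from GeneSpring GX 11, which served as 1 alternative. The files held RefSeq accessions and no gene symbols, so symbols came from a RefSeq table (GRCm38.p6), which named 26630 of 27006 mRNA probes. A probe met the rule where each of its spots did, and probes were collapsed to genes by symbol.

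Flagged outlier spots were left out, spots of a probe were averaged in log2, and each array's own 75th percentile was subtracted. Probes that passed the detection flag on 2 or more of the 6 arrays entered 1 limma fit of the 3 groups (limma 3.58.1, R 4.3.3), with p-values adjusted by Benjamini-Hochberg over 24829 probes and called under 0.05. The fit was checked on simulated data. The spots of Kdm5d, Nufip1 and Olr1 carried outlier flags, so these 3 genes are not in the fit. P-values measure the spread between these samples, 2 per group. Deviations of same-numbered arrays correlated at 0.584 between mock and Flag-Dppa2, which share a line, -0.0244 between wild type and mock and 0.0131 between wild type and Flag-Dppa2.

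The genes, gene lists and role groups were chosen with earlier results of these data known. Values on all arrays are given for the 20 genes with the largest bounds, those next to the signal minimum and those whose other probes were above background in knockout, and every gene is named except 1, which is counted but not reported here. Other genes named after their values were seen are Steap3, Twist2, Thsd4, Batf, Il15ra and those of the pathway lists. Alternatives changed the normalization (quantile), the background correction (normexp with an offset of 50 on the median signals, since the files hold no mean signals), the filter, the rule and the arrays used.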

Additional observations from a re-analysis of the deposited data

How the results depend on the processing

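The rule gave 92 genes, and 33 with a wild-type minimum of 60, 11 with 100 (chosen after seeing the data), 54 where every probe of the gene had to meet it and 9 where no significant signal was allowed in knockout. Leaving out an array gave 102 to 278 genes. Genes called lower in mock numbered 58. They numbered 0 with the wild-type arrays averaged and 0 to 57 when an array was left out, with the 0 from either wild-type array. Genes called lower in Flag-Dppa2 numbered 17. They numbered 27 with quantile normalization and with the series matrix values, 4 with a filter of at least 1 array, 1 with no filter, 11 with an intensity trend, 0 with the wild-type arrays averaged and 0 to 7 when an array was left out. Between Flag-Dppa2 and mock 1 gene was called, and 4 were with quantile normalization and with the series matrix values. The count was 0 with normexp, either looser filter, the trend, wild type averaged, the knockout arrays alone, or any array left out. With the replicate number as a block the counts were 45, 0 and 0, and with the block and the knockout arrays alone 0. Genes in the negative control range on all 4 knockout arrays numbered 10, and 11 to 18 when an array was left out. The median bound was 2.42, and 1.35 with normexp, where the median log2 difference of the genes in mock was -0.66 instead of -3.09. The causes were not tested. Alternatives not listed kept each count within 1.5 times. Signal over background limits most genes, since 48 had wild-type means under 60 units and detection began at 14.6 to 31.9.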

Other observations

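A few probes met the rule in part and belong to no count above. Nefm, a neurofilament chain, is printed in 10 spots and read 567 and 601 in wild type, 7.37 and 3.82 in mock and 31.5 and 7.04 in Flag-Dppa2. All of its spots were dark in mock and on the second Flag-Dppa2 array, and 8 of 10 were well above background on the first, so only 2 spots met the rule. Nos1, a nitric oxide synthase, met it in 1 of 10 spots, with signals of 35.9 and 37.0, 11.7 and 14.9, and 20.6 and 14.4.

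Of the 8 genes left out by name, 7 met the rule. Eif2s3y, a Y-linked translation factor, read 3300 and 3380 in wild type, 5.67 and 3.22 in mock and 4.68 and 5.08 in Flag-Dppa2, and Ddx3y, a Y-linked helicase, 657 and 668, 5.79 and 3.29, and 4.73 and 5.11. Uty, which did not meet it, read 35.9 and 33.8 in wild type and was well above background on 1 of these arrays. Parva, an actin-binding adhesion protein, was dark in knockout by both of its named probes, of which 1 read 157 and 178, 5.56 and 3.17, and 6.58 and 4.97. Usp17la, a deubiquitinase, read 301 and 316, 18.9 and 13.5, and 9.39 and 11.3. Gm428 read 275 and 259, 6.61 and 4.03, and 9.34 and 5.60. Tcstv1, of the same family as Tcstv3, read 172 and 169, 5.79 and 5.27, and 12.6 and 8.68 by 1 of its probes.

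Another 4 probes met the rule but could not be named. The brightest of them read 641 and 710 in wild type, 5.62 and 3.17 in mock and 4.57 and 11.9 in Flag-Dppa2, which places it next to Reg2 among the largest losses.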
